A study of Mus musculus with 6 samples.

Results

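The MCM helicase genes, Mcm2 to Mcm10, and the helicase cofactor Cdc45 were followed in PRO-seq libraries of proliferating muscle stem cells (MuSCs, the satellite cells of skeletal muscle). The 10 genes were located by symbol in the deposited table of 14546 genes, and all 10 were among the 12451 genes tested. PRO-seq captures RNA that engaged polymerases are extending, here in isolated nuclei, so it reports ongoing transcription and not the amount of mRNA. Each gene has a value for the TSS region, the first 400 nt of 1 listed transcript, in RPM (reads scaled to a total per library). It also has a value for the gene body, from the end of that region to the transcript end, in TPM. TPM counts reads per length, scaled to a separate total per library. The ratio of the TSS value to the gene body value is the pausing index. As the regions are scaled separately, a shift between them shared by all genes would not appear in this index.

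The 3 Ctrl libraries came from Pax7CreERT mice with wild-type Suv4-20h1, and the 3 Kmt5b sKO libraries came from Pax7CreERT mice with Suv4-20h1 deleted. Suv4-20h1 is the older name of Kmt5b, a histone H4 methyltransferase. Both groups carried the Cre driver, which is expressed from Pax7 and is activated by tamoxifen, given to young adult mice on a C57BL/6 background. MuSCs were purified from limb and trunk muscle with antibody-coupled beads and cultured in serum with LIF and bFGF. A culture of this kind can hold cycling cells next to cells that have left the cycle. The paper's reporting summary describes the PRO-seq replicates as biological. The labels number the libraries but do not tie each to an animal, so p-values measure the spread between these libraries.

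Mcm2, Mcm3, Mcm4, Mcm5, Mcm6 and Mcm7 encode the subunits of a ring that is loaded onto DNA at replication origins before S phase. At S phase entry Cdc45 and the GINS proteins join the ring to form the CMG complex, the helicase that unwinds DNA ahead of the replication fork, and Mcm10 helps to activate it. Mcm8 and Mcm9 form a separate complex with a role in homologous recombination. Many of these genes are known targets of E2F transcription factors, and their transcription is highest around the start of S phase in cycling cells.

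The sequence before the transcription start is shown for 4 of the genes, because Mcm5, Mcm6, Mcm7 and Mcm10 differ in how many E2F-type motifs they hold. RefSeq promoters, which span 250 bases before to 50 bases after a start on GRCm38.p6, were found for 9 of the 10 genes, all but Mcm4. They were searched on both strands for CCAAT and for 4 E2F-type octamers, TTTCCCGC, TTTGGCGC, TTTCGCGC and TTTGCCGC. The last 170 bases before the start are given 5′ to 3′ in the direction of transcription, with every match in capitals (on the reverse strand CCAAT reads as ATTGG).
Mcm5, plus strand, chr8:75109339-75109508: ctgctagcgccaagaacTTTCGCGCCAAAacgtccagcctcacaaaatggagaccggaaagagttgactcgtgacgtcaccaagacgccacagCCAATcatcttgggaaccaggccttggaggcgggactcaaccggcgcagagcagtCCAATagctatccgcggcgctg
Mcm6, minus strand, chr1:128359706-128359875: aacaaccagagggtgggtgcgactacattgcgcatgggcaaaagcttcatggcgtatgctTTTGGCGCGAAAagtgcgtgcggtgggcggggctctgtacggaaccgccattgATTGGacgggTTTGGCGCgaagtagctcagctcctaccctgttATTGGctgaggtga
Mcm7, minus strand, chr5:138171884-138172053: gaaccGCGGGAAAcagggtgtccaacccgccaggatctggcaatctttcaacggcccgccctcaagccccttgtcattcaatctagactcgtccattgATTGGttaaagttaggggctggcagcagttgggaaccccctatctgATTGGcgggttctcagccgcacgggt
Mcm10, minus strand, chr2:5012792-5012961: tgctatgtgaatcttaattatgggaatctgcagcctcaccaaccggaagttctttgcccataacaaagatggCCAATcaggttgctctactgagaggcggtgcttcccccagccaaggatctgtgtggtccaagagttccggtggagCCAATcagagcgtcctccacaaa

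The run TTTCGCGCCAAA of Mcm5 and the run TTTGGCGCGAAA of Mcm6 each hold an overlapping pair of octamers on opposite strands. Over the full 300 bases, the promoters of Mcm3, Mcm5, Mcm6, Mcm7 and Mcm8 held at least 1 E2F-type octamer, with 3 in Mcm6, 2 each in Mcm3, Mcm5 and Mcm7, and 1 in Mcm8. Those of Mcm2, Mcm9, Mcm10 and Cdc45 held 0, as did a second RefSeq promoter of Mcm7, downstream of the one shown. Counted by promoter, 5 of the 10 member promoters held such an octamer, beside 2.26% of all 32851 RefSeq mouse promoters of this length. CCAAT was in 10 of the 10, beside 37.4% of all promoters. A match describes letters in this window and is not evidence of binding.

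The listed genes held 926904 to 3246052 TSS reads and 7425421 to 16249141 gene body reads per library, and Kmt5b sKO replicate 2 was the shallowest in both regions. In the gene body each Kmt5b sKO library was shallower than each Ctrl library, with at most 12824316 reads against at least 13582326. Kmt5b itself did not fall, with 30.6 to 38.5 TPM in the gene body of Ctrl libraries and 35.0 to 42.6 TPM in that of Kmt5b sKO libraries (log2 fold change 0.14, adjusted p = 0.706 from limma). The deleted part of the gene cannot be seen in a value over the whole gene, so these values do not check the genotype, which rests on the labels. All 7 MuSC markers were present, with Myod1 at a mean of 1091 TPM and Pax7 at 38.6 TPM in the Ctrl gene body, and 0 of 7 passed the threshold in either region. Both units are scaled to a total per library, so a change in the total amount of transcription would not appear.

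Transcription over the gene bodies of the MCM family was lower in Kmt5b sKO than in Ctrl MuSCs for nearly every member. In 9 of the 10 genes, all but Mcm7, each Kmt5b sKO library lay below each Ctrl library, a separation in that direction shown by 9.34% of all tested genes. After adjustment over all genes, 5 of the 10 fell (Mcm3, Mcm5, Mcm6, Mcm8 and Mcm10), 0 rose, while 2.99% of all tested genes changed in either direction and 1.38% changed downward. The median log2 fold change of the 10 genes was -0.93, beside 0.023 over all tested genes. These calls rest on an adjusted p between 0.0635 and 0.0999 from limma, close to the threshold of 0.1. Left out one at a time, Ctrl replicate 1 and each of the Kmt5b sKO replicates reduced the 5 calls to 0 and Ctrl replicate 2 reduced them to 1, while without Ctrl replicate 3 there were 6. An unadjusted p under 0.05 with a lower value was reached by 9 of the 10 genes, all but Mcm7, and by 6.46% of all tested genes. In bulk libraries, fewer cells of a type and less transcription per cell cannot be told apart.

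**Figure D1:**
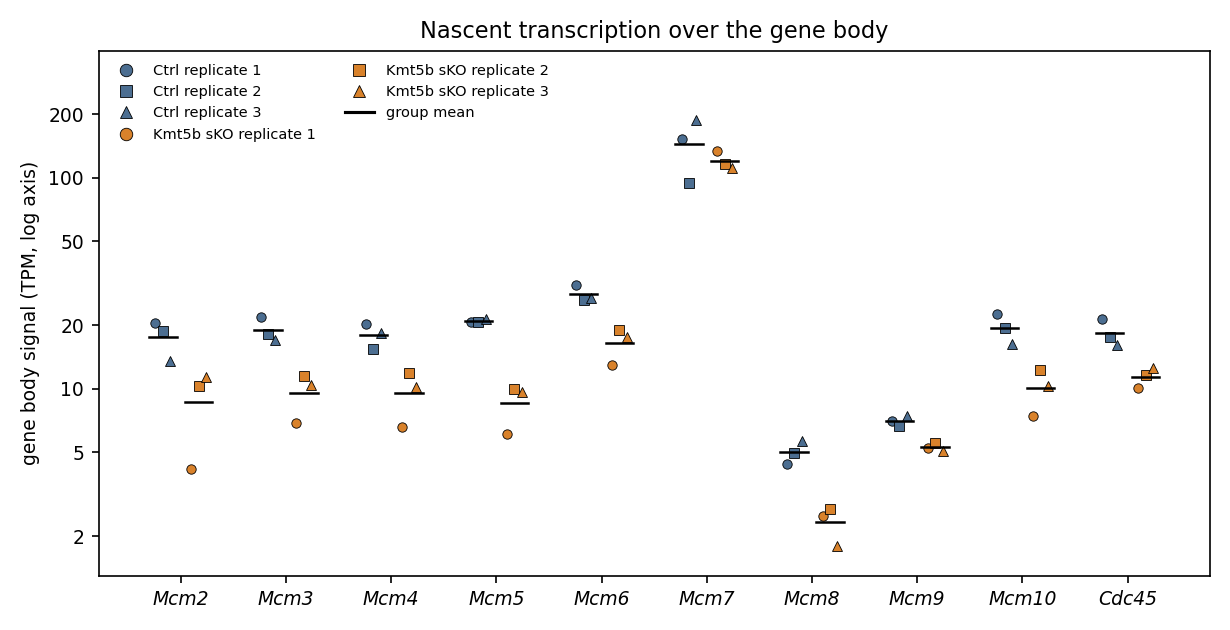
Gene body signal in TPM on a log axis for the 10 genes, with 1 point per library and a line at the mean of each group of 3. In every gene except Mcm7 the 3 Kmt5b sKO points lie below the 3 Ctrl points, and the Mcm7 points are far above the rest in both groups.

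Among the ring subunits, Mcm5 (ENSMUSG00000005410, plus strand of chromosome 8, 75109569 to 75128439 on GRCm38) differed most. In the order of replicates 1 to 3, which is kept below, its gene body held 20.8, 20.7 and 21.4 TPM in the Ctrl libraries, against 6.09, 9.92 and 9.65 TPM in the Kmt5b sKO libraries. The Ctrl libraries were nearly equal (21.0 ± 0.378, SD, n = 3) and all Kmt5b sKO libraries lay at under 10 TPM (8.55 ± 2.14, SD, n = 3). This is a log2 fold change of -1.28 (SE 0.20, adjusted p = 0.0635 from limma), or 2.42-fold lower.

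Mcm3 (ENSMUSG00000041859, minus strand of chromosome 1, 20802968 to 20820312) held 22.0, 18.3 and 17.02 TPM across the Ctrl libraries, against 6.85, 11.4 and 10.5 TPM across the Kmt5b sKO libraries. Its log2 fold change was -0.98 (SE 0.21, adjusted p = 0.0897 from limma). Mcm6 (ENSMUSG00000026355, minus strand of chromosome 1, 128331590 to 128359664) held 31.1, 26.4 and 26.8 TPM across the Ctrl libraries, against 12.9, 18.9 and 17.7 TPM across the Kmt5b sKO libraries, a log2 fold change of -0.76 (SE 0.17, adjusted p = 0.0982 from limma). In both genes the groups were separated, and Kmt5b sKO replicate 1 was the lowest library.

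Mcm4 and Mcm2 did not pass the threshold, although their groups did not overlap. Mcm4 (ENSMUSG00000022673, minus strand of chromosome 16, 15623897 to 15637400) held 20.3, 15.5 and 18.4 TPM across the Ctrl libraries, against 6.59, 11.9 and 10.2 TPM across the Kmt5b sKO libraries, a log2 fold change of -0.92 (95% interval -1.45 to -0.38, adjusted p = 0.118 from limma). Mcm2 (ENSMUSG00000002870, minus strand of chromosome 6, 88883474 to 88898780) held 20.5, 18.7 and 13.5 TPM across the Ctrl libraries, against 4.16, 10.3 and 11.3 TPM across the Kmt5b sKO libraries. Its log2 fold change of -1.08 was the second largest of the family, but the Kmt5b sKO libraries were widely spread, with replicate 1 far below the other two. The 95% interval ran from -1.92 to -0.23 (adjusted p = 0.213 from limma), and without Kmt5b sKO replicate 1 the value was -0.65.

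Mcm7 was the only member whose gene body groups overlapped. Its gene body (ENSMUSG00000029730, minus strand of chromosome 5, 138164600 to 138171818) held 152, 94.4 and 187 TPM in the Ctrl libraries, against 134, 116 and 112 TPM in the Kmt5b sKO libraries. The Kmt5b sKO values lay inside the Ctrl range, and the log2 fold change was -0.21 (95% interval -0.79 to 0.37, adjusted p = 0.759 from limma), an interval that holds both no change and falls of the size seen for Mcm6. Without Ctrl replicate 3 the log2 fold change was 0.0029, and without Ctrl replicate 2 it was -0.49. The Mcm7 gene body lay above 97.5% of all tested genes in Ctrl libraries, and per length it held 6.64, 4.74 and 9.64 times the mean of Mcm2 to Mcm6 in Ctrl replicates 1 to 3. In Kmt5b sKO replicates 1 to 3 it held 18.2, 9.30 and 9.43 times that mean, which overlaps the Ctrl range at its upper end.

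The TSS region of Mcm7 did fall. It held 43.3, 29.9 and 39.0 RPM across the Ctrl libraries, against 12.5, 18.5 and 21.6 RPM across the Kmt5b sKO libraries, all Kmt5b sKO libraries below all Ctrl libraries. The log2 fold change of -1.09 (37.4 ± 6.87 against 17.5 ± 4.66 RPM, SD, n = 3, SE 0.29, adjusted p = 0.0844 from limma) passed the threshold, and Mcm7 was at 0.734 to 0.960 times the mean of Mcm2 to Mcm6 in every library. Mcm7 was the only member whose TSS region passed the threshold while its gene body groups overlapped. Whether both regions moved by different amounts is tested by the pausing index.

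**Figure D2:**
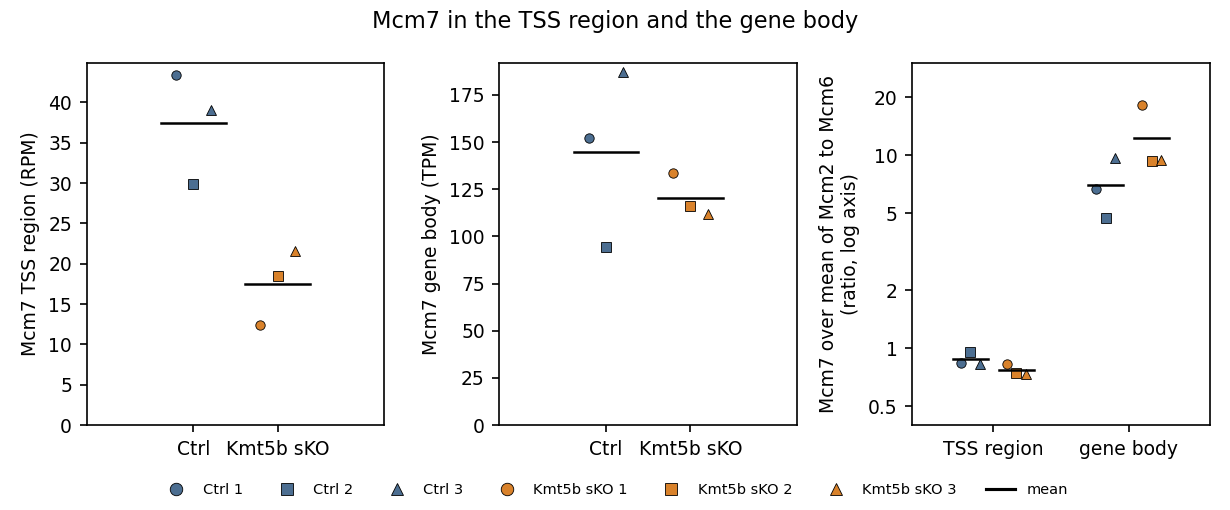
Mcm7 in each library: TSS region signal in RPM, gene body signal in TPM, and, on a log axis, the ratio of Mcm7 to the mean of Mcm2 to Mcm6 in both regions; lines are group means of 3 libraries. The TSS groups separate, the gene body groups overlap, and the ratio is near 1 in the TSS region but between 4.74 and 18.2 in the gene body.

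The listed transcript of Mcm7, Mcm7-208, has a gene body of 6818 nt, the shortest of the 10, and its intron 8, the last of 8, holds the hairpins of Mir25, Mir93 and Mir106b on the same strand. Reads of the miRNA precursors and of Mcm7 cannot be told apart in the gene body value. RefSeq also lists a second Mcm7 start 552 nt after the listed one, inside the gene body, and Cops6 overlaps on the opposite strand, which was counted separately. A mature miRNA of each hairpin is shown with its seed, bases 2 to 8, in capitals, because all 3 are read as part of the Mcm7 gene body value.
mmu-miR-106b-5p, chr5:138165787-138165807: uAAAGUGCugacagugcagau
mmu-miR-93-5p, chr5:138165574-138165596: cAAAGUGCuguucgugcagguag
mmu-miR-25-3p, chr5:138165332-138165353: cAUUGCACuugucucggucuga

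The sequences are RefSeq's for GRCm38.p6, on the minus strand. miR-106b-5p and miR-93-5p share the seed AAAGUGC, and miR-25-3p has the seed AUUGCAC. PRO-seq did not measure the mature miRNAs, and the part of the hosted precursors in the Mcm7 gene body value was not tested.

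The cofactors that turn the loaded ring into a helicase also had lower gene body values. Mcm10 (ENSMUSG00000026669, minus strand of chromosome 2, 4990724 to 5012791) held 22.7, 19.3 and 16.3 TPM across the Ctrl libraries, against 7.43, 12.3 and 10.4 TPM across the Kmt5b sKO libraries, a log2 fold change of -0.93 (SE 0.22, adjusted p = 0.0999 from limma). Cdc45 (ENSMUSG00000000028, minus strand of chromosome 16, 18780453 to 18811626) held 21.3, 17.7 and 16.2 TPM across the Ctrl libraries, against 10.1, 11.7 and 12.5 TPM across the Kmt5b sKO libraries. Its log2 fold change was -0.66 (95% interval -1.03 to -0.29, adjusted p = 0.108 from limma), which missed the threshold. Both genes had separated groups, and both were lowest in Kmt5b sKO replicate 1.

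Mcm8 and Mcm9, the recombination pair, had the lowest gene body levels of the family. Mcm8 (ENSMUSG00000027353, plus strand of chromosome 2, 132816141 to 132843895) held 4.40, 4.95 and 5.63 TPM across the Ctrl libraries, against 2.50, 2.68 and 1.80 TPM across the Kmt5b sKO libraries, and fell by 0.97 on the log2 scale (SE 0.20, adjusted p = 0.0822 from limma). Mcm9 (ENSMUSG00000058298, minus strand of chromosome 10, 53536798 to 53597648) held 7.02, 6.64 and 7.41 TPM across the Ctrl libraries, against 5.25, 5.56 and 5.06 TPM across the Kmt5b sKO libraries. The Mcm9 libraries were tight within each group, and its log2 fold change was -0.38 (95% interval -0.72 to -0.04, adjusted p = 0.268 from limma). Unlike the other separated members, both genes were lowest in Kmt5b sKO replicate 3 and not in replicate 1.

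The TSS region of every member had a lower mean in Kmt5b sKO than in Ctrl MuSCs, and Mcm5, Mcm7 and Mcm8 fell. These are 3 of the 10 genes, against 1.66% of all tested genes called in either direction and 0.731% called downward. Groups did not overlap for 5 genes, Mcm5, Mcm6, Mcm7, Mcm8 and Mcm10, compared with 5.33% of all tested genes separated in that direction. The median log2 fold change of the 10 was -0.80, beside 0.081 over all tested genes, and it was -0.53 without Kmt5b sKO replicate 1. All 10 were below 0 in both regions, compared with 41.8% of the tested genes for the TSS and 46.2% for the gene body, and 7 had an unadjusted p under 0.05 at the TSS, compared with 3.65% of all genes with a lower value. The 3 calls became 0 without Ctrl replicate 1 or Kmt5b sKO replicate 1, 1 (Mcm5) without Ctrl replicate 3 or Kmt5b sKO replicate 3, and 2 without Kmt5b sKO replicate 2, and 3 (Mcm5, Mcm6 and Mcm7) without Ctrl replicate 2.

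**Figure D3:**
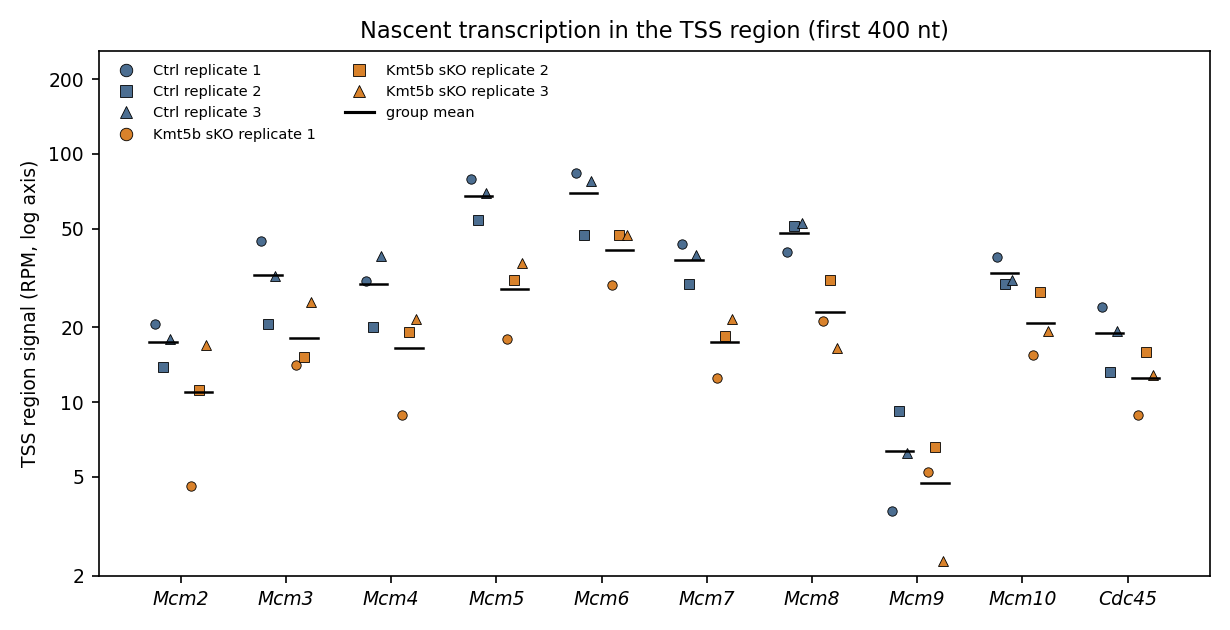
TSS region signal in RPM on a log axis for the 10 genes, with 1 point per library and a line at the mean of each group of 3. Mcm5 and Mcm6 have the highest Ctrl means and Mcm9 the lowest, and the groups separate for Mcm5, Mcm6, Mcm7, Mcm8 and Mcm10.

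Mcm5 had 79.2, 54.0 and 69.5 RPM in the TSS region of Ctrl libraries, against 18.0, 31.0 and 36.3 RPM across the Kmt5b sKO libraries, a log2 fold change of -1.27 (SE 0.27, adjusted p = 0.0454 from limma). Mcm8 had 40.2, 51.1 and 52.7 RPM across the Ctrl libraries, against 21.3, 31.0 and 16.6 RPM across the Kmt5b sKO libraries, a log2 fold change of -1.08 (SE 0.27, adjusted p = 0.0718 from limma). For Mcm5 and Mcm8 the groups were separated in both regions.

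The other members had a TSS log2 fold change between -0.88 (Mcm4, adjusted p = 0.315 from limma) and -0.41 (Mcm9, adjusted p = 0.843 from limma). Mcm6, with 83.8, 47.1 and 77.9 RPM across the Ctrl libraries, against 29.5, 46.9 and 46.9 RPM across the Kmt5b sKO libraries, barely separated, since Ctrl replicate 2 lay just above the highest Kmt5b sKO library. Mcm10 had 38.5, 29.9 and 31.1 RPM across the Ctrl libraries, against 15.4, 27.7 and 19.3 RPM across the Kmt5b sKO libraries. The ring genes Mcm2, Mcm3 and Mcm4 overlapped between the groups. Mcm2 had 20.6, 13.8 and 18.0 RPM across the Ctrl libraries, against 4.59, 11.2 and 17.02 RPM across the Kmt5b sKO libraries. Mcm3 had 44.5, 20.7 and 32.2 RPM, against 14.1, 15.2 and 25.3 RPM, and Mcm4 had 30.7, 20.1 and 38.6 RPM, against 8.85, 19.2 and 21.6 RPM. Cdc45 had 24.2, 13.2 and 19.3 RPM, against 8.85, 15.9 and 12.9 RPM. For Mcm2, Mcm3, Mcm4 and Cdc45 the highest Kmt5b sKO library reached into the Ctrl range, with Ctrl replicate 2 the lowest Ctrl library in each. Without Kmt5b sKO replicate 1 the TSS log2 fold change was -0.31 for Mcm2, -0.49 for Mcm4 and -0.35 for Cdc45, and without Ctrl replicate 1 that of Cdc45 was -0.38. For Mcm9, leaving out Ctrl replicate 1 gave -0.74 and Ctrl replicate 2 gave -0.12, while leaving out Kmt5b sKO replicate 2 gave -0.69 and replicate 3 gave -0.018.

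The depth behind these values differed between the regions. Between 14 and 411 TSS reads per library lay behind the members other than Mcm9, which had 5 to 33, and between 47 and 1825 gene body reads lay behind all 10. Mcm9 had 3.63, 9.19 and 6.25 RPM across the Ctrl libraries, against 5.24, 6.6 and 2.30 RPM across the Kmt5b sKO libraries, and its 95% interval ran from -1.44 to 0.61. The Mcm9 TSS value also belongs to a start 32309 nt after the RefSeq start of the gene, in the listed transcript Mcm9-206. The listed start of Cdc45 was 346 nt after its RefSeq start, that of Mcm5, Mcm6 and Mcm7 41 to 65 nt after it, and for Mcm2, Mcm3, Mcm8 and Mcm10 they were the same base. Between 5.12% and 25.2% of each gene body was exonic, so most of each gene body is intron.

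**Figure D4:**
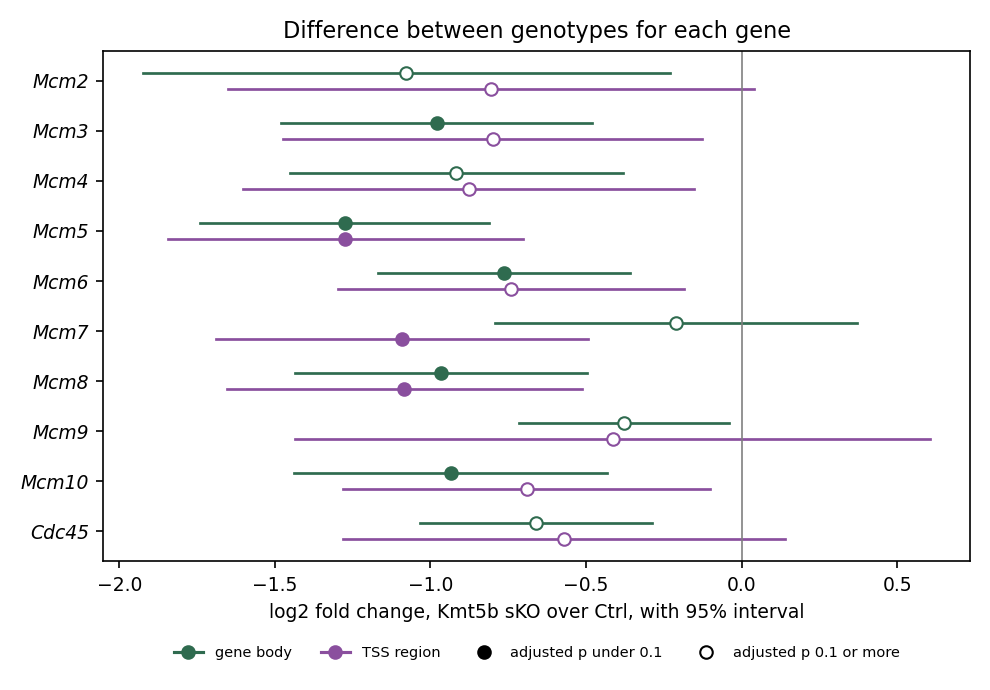
Log2 fold change of Kmt5b sKO over Ctrl for each gene, with its 95% interval from limma, in the gene body and the TSS region; filled points passed an adjusted p of 0.1. All points lie below 0, and the gene body point of Mcm7 (-0.21) lies nearest to it.

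No member changed its pausing index at the threshold. With limma 0 of the 10 and 0 (0%) of the 11698 genes with an index passed an adjusted p of 0.1, and 0 members had an unadjusted p under 0.05, compared with 3.86% of all genes. The members' median log2 difference was 0.046, beside 0.053 over all genes. The 95% interval of Mcm5 ran from -0.50 to 0.58 and that of Mcm8 from -0.53 to 0.56. Shifts inside these intervals were not excluded.

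Mcm7 had the lowest index of the family, with 0.284, 0.316 and 0.208 across the Ctrl libraries, against 0.0932, 0.159 and 0.193 across the Kmt5b sKO libraries. It was the only member whose groups did not overlap, a downward separation that 3.09% of all genes with an index also showed. Its log2 difference was -0.90 (95% interval -1.89 to 0.09, adjusted p = 0.9997 from limma), so a different response of its TSS region and gene body was not shown. Without Kmt5b sKO replicate 1 the difference was -0.60.

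Mcm8 lay at the other end, with an index of 9.13, 10.3 and 9.35 across the Ctrl libraries, against 8.52, 11.6 and 9.20 across the Kmt5b sKO libraries. Its Ctrl index was above that of 98.3% of the genes with an index, whereas that of Mcm7 was above 4.70% of them. Mcm5 followed with a Ctrl mean of 3.22 and Mcm6 with 2.46, which overlapped each other in Ctrl but not in Kmt5b sKO libraries, and the remaining members had Ctrl means between 0.915 and 1.72. The order of the 10 genes by pausing index was the same in both groups.

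In the gene body of Ctrl MuSCs the family ranked Mcm7, Mcm6, Mcm5, Mcm10, Mcm3, Cdc45, Mcm4, Mcm2, Mcm9 and Mcm8 by mean TPM. Mcm7 and Mcm6, Mcm6 and Mcm5, Mcm2 and Mcm9, and Mcm9 and Mcm8 were apart in all libraries, while from Mcm5 to Mcm2 each neighbour overlapped the next. The subunits Mcm2 to Mcm6 had similar levels per length, with 1.53, 1.70 and 1.99 times between the highest and the lowest in Ctrl replicates 1 to 3. In Kmt5b sKO replicates 1 to 3 this spread was 3.11, 1.91 and 1.83, with Mcm6 highest in all 6 libraries. In the TSS region the spread was wider, 2.76 to 6.43 times, with Mcm2 the lowest of these 5 subunits in all 6 libraries.

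Most members shared the same lowest and the same highest library, though the full order of the libraries differed between members. How many other genes share these libraries was not counted. Kmt5b sKO replicate 1 was the lowest library for 7 of the 10 genes in the gene body and 8 in the TSS region, and Ctrl replicate 1 was the highest for 6 and 7. Over the 6 libraries the log2 gene body values of Mcm3, Mcm4, Mcm5 and Mcm6 had a Pearson r of 0.980 to 0.997 with the mean of Mcm2 to Mcm7, in which they take part. Mcm2 (0.933) and Mcm7 (0.298) also take part in that mean. Outside it, the r was 0.972 for Mcm10, 0.953 for Cdc45, 0.895 for Mcm9 and 0.802 for Mcm8. The genes outside the family with the most similar pattern were Ccne2 (0.999), a cyclin of the G1 to S transition, Pcna (0.998), the sliding clamp of DNA polymerase, Ggh (0.994), a hydrolase of folate metabolism, Apobec3 (0.993), a cytidine deaminase, and the helicase gene Helq (0.991). An r of at least 0.95 was shared by 62 of 12441 other genes, 0.498%, among them 8 of 44 other replication genes. These correlations describe 6 libraries that also differ in genotype and depth.

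The starts of Mcm4, Mcm7, Mcm8 and Cdc45 lie within 1000 nt of the start of a gene on the other strand that points away, and none of these neighbours passed the threshold. The pairs were Mcm4 with Prkdc (489 nt), Mcm7 with Ap4m1 (184 nt), Mcm8 with Trmt6 (87 nt) and Cdc45 with Ufd1 (668 nt). The gene body log2 fold change of the neighbours was -0.15, 0.03, -0.27 and 0.09, in that order, and their groups overlapped in both regions. In the TSS region Trmt6 differed by 0.01 and Mcm8, which starts 87 nt away, by -1.08. The adjusted p of the neighbours from limma lay between 0.571 and 0.972 in the gene body and between 0.626 and 0.993 in the TSS region. The difference between a member and its neighbour was not tested. Asf1a overlaps the listed start of Mcm9 on the opposite strand, with starts 696 nt apart, and differed by -0.25 in the gene body (log2, adjusted p = 0.606 from limma). Its TSS region value was -0.44 (adjusted p = 0.463 from limma), with all Kmt5b sKO libraries below all Ctrl libraries.

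The proteins that work with the MCM ring were examined through a list of 46 DNA replication genes, of which 44 were tested; Pola1 lies on X and Mcmdc2 was below the filter on low values. In their gene bodies 15 of the 44 fell, beside 1.38% of all tested genes, 0 rose, and 43 were below 0, beside 46.2% of all tested genes, with a median log2 fold change of -0.69. In the TSS region 5 fell, beside 0.731% of all tested genes, 0 rose, and 41 were below 0, beside 41.8%, with a median of -0.60. The threshold was passed in both regions by 3 genes. By role, the gene body calls were 1 of 4 GINS genes, 3 of 9 genes of origin recognition and loading, 4 of 8 firing genes, 0 of 4 genes of fork protection and MCM handling, and 7 of 19 DNA synthesis genes. The 15 gene body calls became 0 without Ctrl replicate 1 or any 1 of the Kmt5b sKO replicates, 6 without Ctrl replicate 2 and 24 without Ctrl replicate 3. The 5 TSS calls became 0 without Ctrl replicate 1 or Kmt5b sKO replicate 1, 3 without Kmt5b sKO replicate 3, and 8 without Ctrl replicate 2.

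Gins1, a GINS subunit of the CMG complex, had 7.59 to 9.06 TPM in Ctrl and 3.05 to 3.87 TPM in Kmt5b sKO libraries, and fell by 1.13 on the log2 scale (adjusted p = 0.0610 from limma). Cdc6, which loads the ring together with Cdt1, had 19.7 to 27.4 TPM in Ctrl and 8.46 to 12.5 TPM in Kmt5b sKO libraries (-1.07, adjusted p = 0.0691 from limma). Gmnn, the inhibitor of Cdt1, fell in the gene body (-1.13, adjusted p = 0.0798 from limma) and in the TSS region (-1.49, adjusted p = 0.0289 from limma).

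Ticrr, needed to bring Cdc45 to the ring, fell in the gene body (-1.03, adjusted p = 0.0655 from limma). So did Prim1 of the primase (-1.20), Pcna (-1.23), Lig1 (-1.22), the DNA ligase that joins Okazaki fragments, Fen1 (-0.91), the flap nuclease that trims them, and Pole and Pole2 of the leading-strand polymerase (-0.98 and -0.75), with an adjusted p between 0.0655 and 0.0764 from limma. Prim1, Pcna, Clspn (-1.60), a fork protection gene, and Rpa2 (-0.98), of the single-strand binding protein, fell in the TSS region. The exceptions within the list were the origin recognition genes Orc3 (-0.07) and Orc4 (-0.0037), and Pola2 (0.09) and Pold2 (-0.08), named after their values were seen, whose gene body log2 fold change was within 0.1 of 0. None of the 4 passed the threshold.

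**Figure D5:**
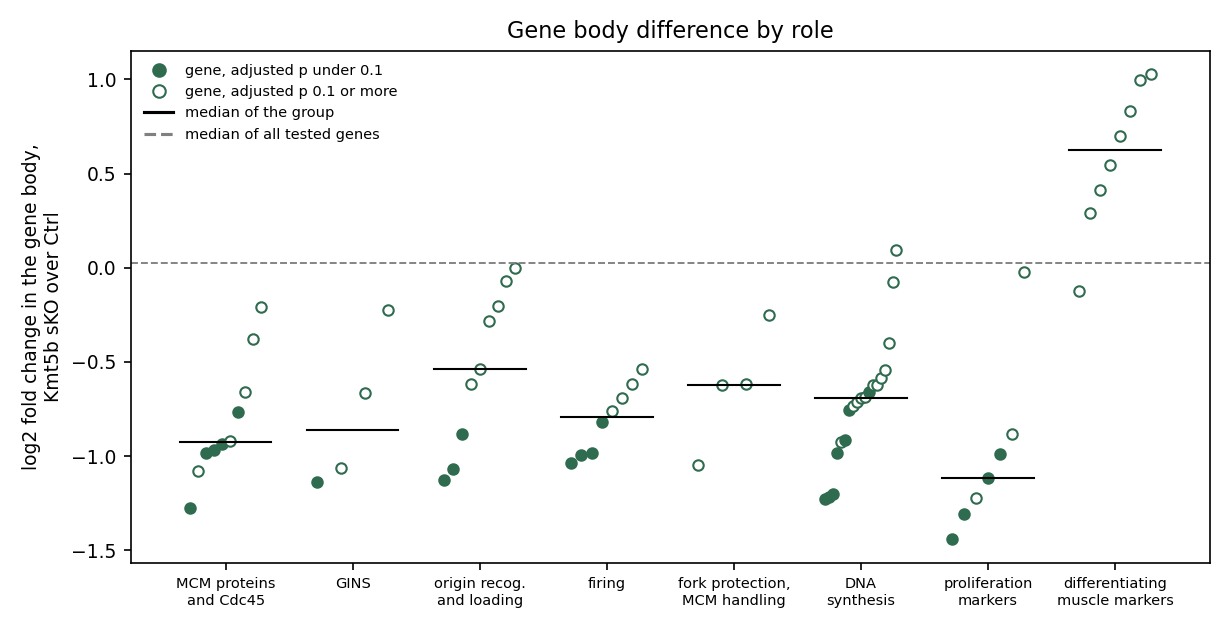
Gene body log2 fold change of Kmt5b sKO over Ctrl, 1 point per gene, by role; filled points passed an adjusted p of 0.1, solid lines are group medians and the dashed line is the median of all tested genes (0.023). The helicase genes (-0.93), the other replication groups and the proliferation markers lie mostly below the dashed line, and the differentiating muscle markers mostly above it.

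Of 7 proliferation markers, 4 (Top2a, Cdk1, Ccna2 and Bub1) fell in the gene body, beside 1.38% of all tested genes, while Ccnb1 was at -0.02 on the log2 scale. With Ctrl replicate 1 left out, and with each Kmt5b sKO replicate left out in turn, 0 of all tested genes were called in the gene body, so these 4 calls were lost as well. The list of 7 summed to 295 to 446 TPM in Ctrl and 203 to 231 TPM in Kmt5b sKO libraries, without overlap. At the TSS, 2 of these 7 (Top2a and Ccna2) fell, beside 0.731% of all tested genes. All 7 were below 0 there, beside 41.8% of all tested genes, with Ccnb1 at -0.82 (adjusted p = 0.150 from limma). Without Ctrl replicate 1, 0 of all tested genes were called lower at the TSS. Of 8 markers of differentiating muscle 0 passed in the gene body, 7 were above 0, and the list summed to 1784 to 3367 TPM in Ctrl and 3158 to 4303 TPM in Kmt5b sKO libraries, with overlap. In the TSS region 1 of the 8 passed, Mef2c (1.32, adjusted p = 0.0718 from limma), beside 1.66% of all tested genes called in either direction. The Mef2c groups overlapped there, with up to 65.5 RPM in Ctrl and down to 58.1 RPM in Kmt5b sKO libraries. The part of either list in the lower MCM values was not tested. The mature fibre list summed to at most 269 TPM in Ctrl and at most 540 TPM in Kmt5b sKO gene bodies, with overlapping groups, and 2 of its 5 genes were tested, with 0 called. Of markers of other cells, the endothelial list summed to 2.50 to 4.23 TPM in Ctrl and 4.38 to 5.05 TPM in Kmt5b sKO gene bodies with Kdr and Emcn not listed, and the fibroblast list to 38.1 to 56.1 TPM in Ctrl and 38.8 to 45.2 TPM in Kmt5b sKO libraries, nearly all from Col3a1, with Dcn and Lum not listed. Cd68 alone of the 5 macrophage genes was listed, at 214 to 402 TPM in Ctrl and 319 to 326 TPM in Kmt5b sKO libraries.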

How the data were processed

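PRO-seq reads of 3 Ctrl and 3 Kmt5b sKO libraries were processed by the authors with Trimmomatic 0.39, STAR 2.6.1d and Picard 2.18.16, per the submitters' processing notes, on GRCm38 (mm10), with 1 random position kept for a read that matched several. They counted sense reads over protein-coding isoforms and listed 1 isoform per gene, the one with the highest mean TSS value. The deposited TSS values are RPM and the deposited gene body values are TPM; the methods name TPM for both, which differ by a constant here, as all TSS regions are equally long. The listed coordinates of all 10 members matched transcripts of GENCODE vM21.

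Genes on X and Y and genes with a mean under 0.5 in either region were left out. A limma 3.58.1 model (lmFit, eBayes with trend, R 4.3.3) of genotype alone was fitted to log2(value + 0.5). The threshold was an adjusted p under 0.1 by Benjamini-Hochberg. The scale understates changes of low genes. The pausing index was tested as a log2 ratio without a pseudocount in genes above 0 everywhere. Whole reads were recovered from the value steps, for 99.7% to 100% of TSS values and 95.6% to 99.1% of gene body values of genes under 2000 nt, to within 0.0051 of the value, and were tested with edgeR 4.0.16 and DESeq2 1.42.0. Each setting was changed on its own, and each library was left out in turn. The limma fits were also run on simulated reads, drawn independently for each gene without shifts shared by a library. No result here rests on that simulation.

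The members, gene lists and tests were chosen with earlier results of these data known. The genes to be named were the 10 members, the oppositely oriented neighbours within 1000 nt, the 5 other genes most correlated with the mean of Mcm2 to Mcm7, and up to 12 of the replication genes past the threshold, by adjusted p. Plots were drawn with matplotlib 3.10.9 in Python 3.11.15.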

Additional observations from a re-analysis of the deposited data

How the results depend on the processing

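Every member kept a lower value in Kmt5b sKO in both regions under all settings, except the gene body of Mcm7 without Ctrl replicate 3, and what changed was which genes passed the threshold. The gene body count of 5 members was 2 without the filter on low values, 3 without the eBayes trend, 3 with a pseudocount of 0.1, 0 at an adjusted p under 0.05 and 9 with DESeq2 on recovered reads. Its range was 0 to 6 with 1 library left out. The TSS count of 3 was 0 without the filter, 0 without the trend and 1 at 0.05, with a range of 0 to 3 with 1 library left out. The 15 replication genes called in the gene body were 0 at 0.05, 31 with DESeq2 and 0 to 24 with 1 library left out. The 5 called in the TSS region were 0 without the filter, 0 without the trend, 2 at 0.05, 8 with edgeR, 9 with DESeq2 and 0 to 8 with 1 library left out. Over all genes, 372 gene body calls became 1 at 0.05, 748 with edgeR, 1295 with DESeq2 and 0 to 836 with 1 library left out (0 without Ctrl replicate 1 or any 1 of the Kmt5b sKO replicates, 836 without Ctrl replicate 3). The 207 TSS calls became 0 without the filter, 0 without the trend, 64 at 0.05 and 1 to 408 with 1 library left out (1 without Ctrl replicate 1, 16 without Kmt5b sKO replicate 1, 46 without Kmt5b sKO replicate 3, 132 without Kmt5b sKO replicate 2, 408 without Ctrl replicate 2). Counts under the other settings stayed within 1.5 times. The causes of these changes were not tested.

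Titles number the replicates in both groups, but same-numbered libraries did not deviate together (r between -0.163 and -0.0337 for TSS values, between -0.329 and -0.153 for gene body values). With the replicate number as a block, 0 members, 0 replication genes and 0 of all genes were called in either region, with unchanged fold changes. An unadjusted p under 0.05 in limma with this block was reached by 7 members in the TSS region, beside 1141 of all 12451 tested genes. In the gene body it was reached by 8 members, beside 1441 of all 12451.

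Under the settings that kept all 6 libraries, the members' median log2 fold change ranged from -0.97 to -0.87 in the gene body. In the TSS region it ranged from -0.90 to -0.77. With 1 library left out it ranged from -1.07 to -0.67 in the gene body and from -1.02 to -0.53 in the TSS region. The smallest sizes were those without Kmt5b sKO replicate 1. Without 1 library the Mcm7 gene body value ranged from -0.49 to 0.0029. No member passed for the pausing index under any setting, and several differences near 0 changed sign. With centred libraries Mcm5 was at -0.015, Mcm6 at -0.018 and Mcm8 at -0.039, and with 0.5 added in both regions Mcm8 was at -0.12. With 1 library left out the index difference ranged from -0.061 to 0.45 for Mcm3, -0.12 to 0.25 for Mcm4, -0.11 to 0.17 for Mcm5, -0.18 to 0.17 for Mcm6, -0.12 to 0.11 for Mcm8, -0.41 to 0.37 for Mcm9 and -0.12 to 0.23 for Cdc45, and that of Mcm7 from -1.13 to -0.60.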
